A study of Rattus norvegicus with 11 samples.

Results

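Macrophages of the ileum were followed through 10 genes that are commonly used to mark them: Cd68, Cd163, Adgre1, Csf1r, Mrc1, C1qa, C1qb, C1qc, Spp1 and Arg1. The genes were chosen by symbol, with earlier results of these data known. All 10 of 10 were found among the 24481 genes with read counts and the 24205 genes with FPKM (a level scaled for gene length and library size). RNA came from the ileum of Sprague-Dawley (SD) rats aged 6 to 8 weeks, which the study describes as male. In the SAP group (4 libraries), severe acute pancreatitis had been induced by retrograde injection of 3% sodium taurocholate into the pancreatic duct, and vehicle was given intraperitoneally 24 h later. In the JZL184 group (4 libraries), rats with SAP received 10 mg/kg of JZL184, an inhibitor of the 2-arachidonoylglycerol-degrading enzyme monoacylglycerol lipase (MAGL), in place of vehicle. The control group (3 libraries) received vehicle, and the protocol, which forms all 3 groups 24 h after surgery, describes no separate operation for it. All rats were killed 24 h after the injection. The treatment label of the controls names a control plasmid and the titles of the SAP libraries say oil, which the protocol does not mention.

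Macrophages of the gut wall are renewed largely from blood monocytes, depend on the growth factor receptor CSF1R, clear dying cells and microbes, and in the healthy lamina propria carry the scavenger receptors CD163 and CD206. Newly arrived monocytes gain these markers step by step, so that no marker stands for all macrophages. C1q, the recognition part of the classical complement pathway, is made mainly by tissue macrophages, whereas osteopontin (Spp1) and arginase 1 (Arg1) are induced in some activated macrophages and are also made by other cell types. In bulk tissue, fewer macrophages and less of a gene's RNA per macrophage cannot be told apart.

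Between 26341299 and 33847135 reads per library lay on genes. Control libraries 1 and 2 differed far less from each other (chi-square per gene 2.81 over genes with 20 or more reads) than the other pairs of libraries within a group (77.5 to 563), so they were counted as 1 sample, which left n = 2 in the control group. Over all genes SAP libraries 1 and 2 stood apart from SAP libraries 3 and 4, with a chi-square per gene of 85.5 within the first pair, 99.1 within the second and 337 to 563 between them. SAP library 2 had 20 reads on Y-linked genes against 1222 to 4665 in the other libraries, although the study names male rats. On LOC100911498, which was also used to check sex, it had 7826 reads against 0 to 56 in the other libraries. The sex of this sample is therefore uncertain. Values without SAP libraries 1 and 2 are therefore given beside the results that rest on them. The cell label names intestinal epithelial cells, but the source is ileum tissue, and the summed FPKM of 5 smooth muscle markers was 315 to 1821 and that of 7 T cell markers 51.9 to 160 per sample, so that the libraries held RNA of the gut wall and not of epithelium alone. Most markers of neutrophils were higher with SAP. In SAP the mean of 7 of the 9 exceeded that in control, with Cxcr2 and Elane at 0 in both control samples. Mpo was lower in every SAP and JZL184 sample (0.07 to 0.3 FPKM) than in the controls (0.355 and 0.56). The summed FPKM was 1.31 to 2.81 in control, 8.73 to 82.9 in SAP and 13.2 to 251 in JZL184. Most of each sum in SAP and JZL184 came from S100a8 (3.56 to 39.6 and 6.33 to 149) and S100a9 (2.49 to 38.5 and 5.56 to 95.6). The B cell and T cell lists were lower in mean with SAP, most of all in SAP libraries 1 and 2. All 5 B cell markers lay below control without overlap (sums of 78.1 to 95.7 in control). The B cell sum was 11.2 and 29.3 in SAP libraries 1 and 2, and 66.0 and 74.2 in SAP libraries 3 and 4. All 7 T cell markers had a lower mean, 1 of them without overlap. The T cell sum was 140 and 160 in control, 51.9 and 103 in SAP libraries 1 and 2, and 132 and 157 in SAP libraries 3 and 4. The sum of 8 epithelial markers was 15441 to 18932 in control, 8543 to 13418 in SAP and 8315 to 10817 in JZL184. Of these 8, 5 had a lower mean in SAP than in control (3 without overlap) and 3 a higher one (1 without overlap). Among all genes tested in SAP against control, 11.9% were lower and 11.3% higher without overlap, by read counts scaled to library size. The part that these marker lists had in the differences of the macrophage genes was not tested.

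The 10 genes differed widely in abundance. In the controls, the 3 C1q chains were the most abundant per length, at 243 ± 25.1 FPKM for C1qa, 73.6 ± 5.87 for C1qb and 49.6 ± 1.93 for C1qc (mean ± SD, n = 2). Cd68 (4.05 ± 0.59) and Csf1r (3.81 ± 0.54) lay within their spread of each other, followed by Spp1 (1.33 ± 0.0955). Cd163 (0.708 ± 0.0884), Arg1 (0.67 in both samples), Mrc1 (0.585 ± 0.276) and Adgre1 (0.358 ± 0.145) stood lowest, and each overlapped its neighbour in this order. In SAP the order was C1qa (195 ± 75.1), C1qb (54.2 ± 22.6), C1qc (49.7 ± 24.1), Cd68 (10.3 ± 4.41), Spp1 (8.57 ± 6.56), Cd163 (6.49 ± 4.55), Csf1r (4.39 ± 2.04), Mrc1 (3.71 ± 1.65), Adgre1 (1.33 ± 0.817) and Arg1 (0.975 ± 0.381, n = 4). Neighbours in this order overlapped except C1qa and C1qb, C1qc and Cd68, and Mrc1 and Adgre1. With JZL184 the chains C1qa (106 ± 38.8), C1qb (59.4 ± 29.2) and C1qc (44.2 ± 22.3) again stood above Cd163 (5.58 ± 2.41), Spp1 (5.17 ± 0.69), Cd68 (5.07 ± 2.78), Mrc1 (2.92 ± 0.813), Arg1 (1.56 ± 1.21), Csf1r (1.46 ± 0.459) and Adgre1 (0.288 ± 0.145, n = 4). Here neighbours overlapped except C1qc and Cd163, and Csf1r and Adgre1. Adgre1 rested on 10 to 251 reads and Arg1 on 19 to 183 reads per library, whereas the C1q chains had 528 to 8362, so that counting error matters most for Adgre1 and Arg1.

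**Figure D1:**
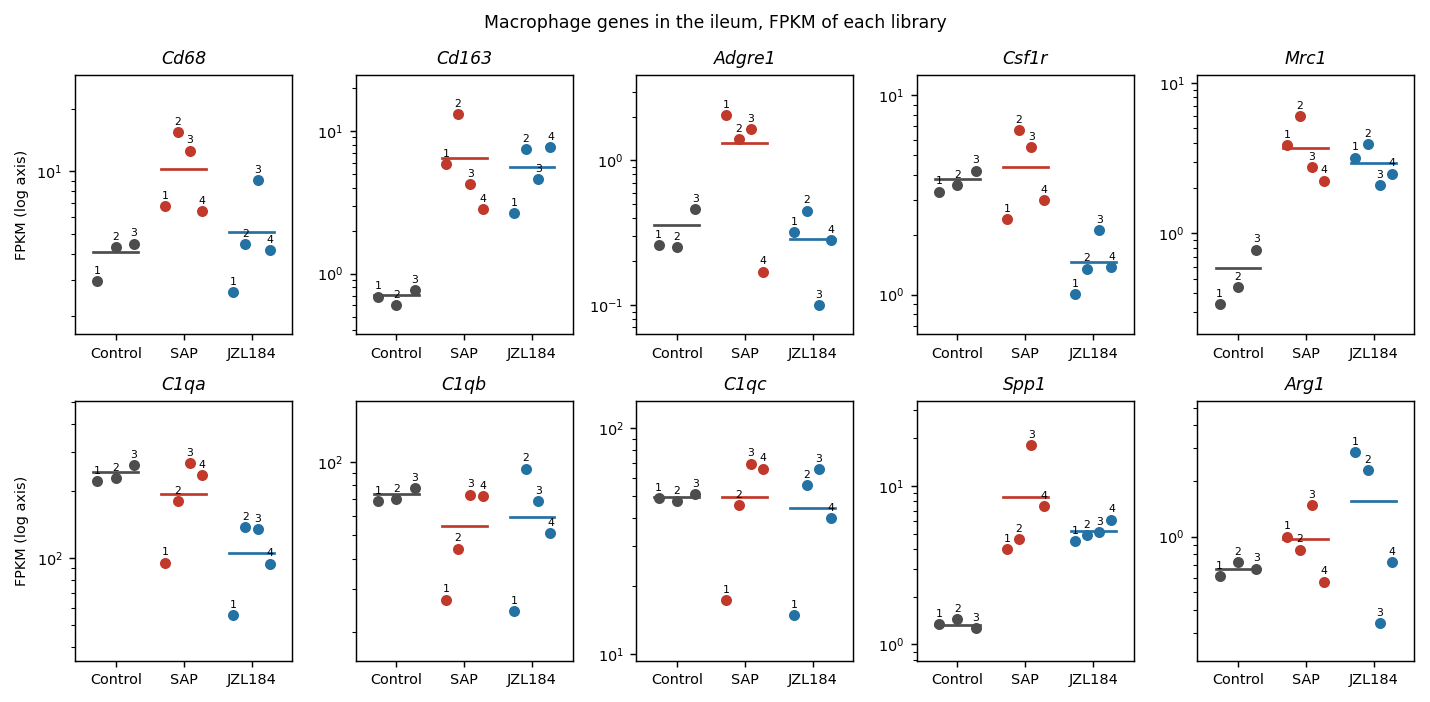
FPKM of each macrophage gene in every library (log axis, scales differ between panels), with the library number beside each point and a bar at the group mean, for which control libraries 1 and 2 were averaged first. Cd163, Mrc1 and Spp1 lie higher in every SAP and JZL184 library than in any control, and Csf1r lies lower in every JZL184 library than in any other library.

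The first comparison asked what the macrophage genes did in SAP. The scavenger receptors Cd163 and Mrc1 and the matrix protein Spp1 had several-fold higher levels in all 4 SAP libraries than in the controls, while the C1q chains and Csf1r did not. Cd163, the receptor for haptoglobin-hemoglobin complexes, was at 0.69, 0.60 and 0.77 FPKM in control libraries 1 to 3, and at 5.83, 13.06, 4.23 and 2.83 FPKM in SAP libraries 1 to 4. All SAP libraries lay above all controls, and the fitted ratio was 7.95-fold (log2 fold change 2.99, SE 0.63). Mrc1, the mannose receptor CD206, was at 0.34, 0.44 and 0.78 FPKM in control and at 3.85, 5.98, 2.77 and 2.24 FPKM in SAP. Here too the groups did not overlap (log2 fold change 2.50, SE 0.50). Spp1 was at 1.34, 1.45 and 1.26 FPKM in control and at 4.0, 4.64, 18.15 and 7.48 FPKM in SAP, without overlap (log2 fold change 2.54, SE 0.74). SAP libraries 1 and 2 were the highest for Cd163 and Mrc1, but SAP libraries 3 and 4 were the highest for Spp1.

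These differences depended on the test. With edgeR's quasi-likelihood test, 0 of 10 genes were called (adjusted p under 0.05, levels differing by more than 2-fold), as were 0 of all 16029 genes tested (0%), and the adjusted p was 0.403 for Cd163, 0.387 for Mrc1 and 0.459 for Spp1. At an unadjusted p below 0.05 there were 4 of the 10 genes, all higher (Cd68, Cd163, Mrc1 and Spp1), and 1457 of all genes. With DESeq2, the tool of the study, Cd163 (adjusted p = 0.000114), Mrc1 (0.000175) and Spp1 (0.0180) rose, against 0.861% of all genes called higher and 0.366% called lower. This fit took control libraries 1 and 2 as 1 sample. With them as separate samples, DESeq2 called 4 of the 10 genes, all higher, and 1434 of 16941 genes, the number reported in the study. With limma-voom, 14 genes of all were called, and none of the 10. DESeq2 called 1 of these genes without control library 3 and 0 without control libraries 1 and 2. Without SAP libraries 1 and 2, edgeR also called Cd163 (log2 fold change 2.25, adjusted p = 0.0092), Mrc1 (2.06, 0.0424) and Spp1 (3.17, 0.0092), in a fit that called 74 of all 15362 genes.

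Cd68, a glycoprotein of late endosomes and lysosomes, was at 2.95, 4.32 and 4.47 FPKM in control and at 6.78, 15.38, 12.56 and 6.41 FPKM in SAP. The groups did not overlap, with a log2 fold change of 1.16 (SE 0.44). With control libraries 1 and 2 as 1 sample, neither edgeR (adjusted p = 0.459) nor DESeq2 (0.232) called it. Csf1r, which binds CSF1 and IL-34, was at 3.29, 3.56 and 4.19 FPKM in control and at 2.39, 6.70, 5.48 and 2.98 FPKM in SAP. The SAP libraries lay on both sides of the controls, and the log2 fold change of 0.03 (SE 0.44) took the other sign in 10 of 24 alternatives. Adgre1, an adhesion receptor of mature rodent macrophages, was at 0.26, 0.25 and 0.46 FPKM in control and at 2.07, 1.41 and 1.65 FPKM in SAP libraries 1 to 3, but at 0.17 FPKM in SAP library 4, below every control. Its log2 fold change was 1.69 (SE 0.84; edgeR, adjusted p = 0.459).

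C1qb, which in control libraries 1 to 3 was at 68.72, 70.08 and 77.70 FPKM, was at 27.16, 44.0, 73.30 and 72.50 FPKM in SAP libraries 1 to 4. C1qa was at 95.60, 180.17, 266.45 and 236.20 FPKM in SAP, and C1qc at 17.22, 45.77, 69.61 and 66.14 FPKM. The chains thus varied together, lowest in SAP library 1 and near or above the controls in SAP libraries 3 and 4. The C1q chains and Arg1 were not called in SAP by edgeR or DESeq2. Their edgeR log2 fold changes were -0.46 (SE 0.44) for C1qa, -0.58 (SE 0.46) for C1qb, -0.14 (SE 0.55) for C1qc and 0.35 (SE 0.46) for Arg1. Without SAP libraries 1 and 2 the fold changes of C1qa (-0.02) and C1qb (-0.08) were near 0, and that of C1qc was 0.39. By read counts scaled to library size with TMM (CPM), 4 of the 10 genes were higher without overlap (Cd68, Cd163, Mrc1 and Spp1) against 11.3% of all genes, and 1 was lower (C1qb) against 11.9%. By FPKM C1qb overlapped, since SAP libraries 3 and 4 (73.30 and 72.50) lay above control libraries 1 and 2 (68.72 and 70.08). The median log2 fold change of the 10 genes was 0.754, and that of all genes tested was 0.0619.

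**Figure D2:**
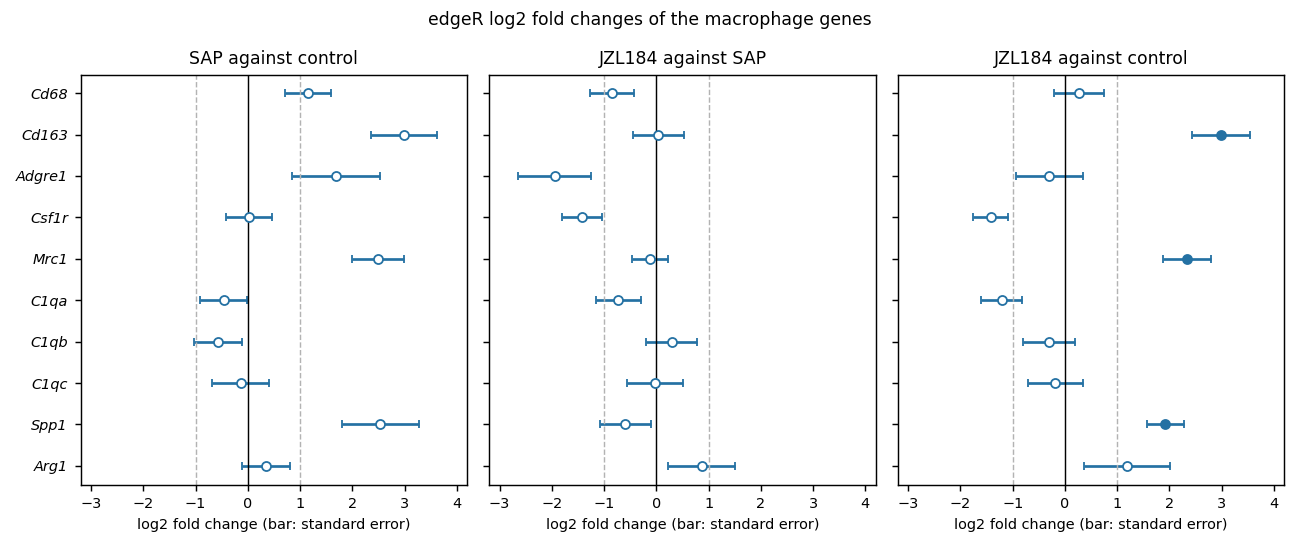
Log2 fold change of the 10 macrophage genes in the 3 comparisons by edgeR (points) with the standard error (bars), dashed lines at the fold change thresholds, and filled points for genes called. Filled points appear only for Cd163, Mrc1 and Spp1 in JZL184 against control, where they lie at 2.99, 2.34 and 1.92.

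The second comparison asked what JZL184 did in rats with SAP. The levels of Csf1r and Adgre1 were lower with JZL184, whereas Cd163, Mrc1, C1qb and C1qc overlapped the SAP libraries and had log2 fold changes between -0.13 and 0.30. C1qa, at -0.73 (SE 0.43), overlapped too and was not called (edgeR, adjusted p = 0.333). Csf1r was at 1.01, 1.35, 2.10 and 1.37 FPKM in JZL184 libraries 1 to 4, all below the lowest SAP library (2.39 FPKM) and below the lowest control. The ratio of SAP to JZL184 was 2.67-fold (log2 fold change -1.42, SE 0.38). Adgre1 was at 0.32, 0.45, 0.10 and 0.28 FPKM with JZL184, below SAP libraries 1 to 3 but overlapping SAP library 4 (log2 fold change -1.95, SE 0.69). On the genome Adgre1 overlaps the RefSeq genes Hspa14-ps1 and LOC103690497, and Mrc1 overlaps LOC134482611 and Mir511. The sources used here do not say how reads were assigned by strand, so the values of Adgre1 and Mrc1 are uncertain to that extent.

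edgeR called 0 of 10 genes between JZL184 and SAP, and 0 of 15308 genes overall (0%), with an adjusted p of 0.110 for Csf1r and 0.168 for Adgre1. At an unadjusted p below 0.05 there were 2 of the 10 genes, both of these, and 3267 of all genes. With DESeq2, Csf1r (adjusted p = 0.0167) and Adgre1 (0.0453) fell, against 3.41% of all genes called lower and 3.57% called higher. With limma-voom, 699 of 15308 genes were called, and none of the 10. DESeq2 no longer called Csf1r when SAP library 2, SAP library 3, JZL184 library 2 or JZL184 library 4 was left out, and it called Adgre1 only when SAP library 4 or JZL184 library 2 was the one left out. Without SAP libraries 1 and 2, DESeq2 called Csf1r alone, and the edgeR log2 fold changes were -1.47 for Csf1r and -1.52 for Adgre1. Csf1r was the 1 gene of the 10 whose groups did not overlap by CPM, against 5.59% of all genes lower and 6.23% higher.

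Several marker lists moved with Csf1r. Its level also reflects dendritic cells and other myeloid cells, and all 6 dendritic cell markers had a lower mean FPKM in JZL184 than in SAP, 2 of them without overlap, none at 0 in a group. The summed FPKM of these markers was 43.0 to 75.8 in control, 27.5 to 48.9 in SAP and 15.8 to 26.5 in JZL184. Most of each sum came from Batf3 alone (40.7 and 71.6 in control, 23.4 to 44.9 in SAP and 14.2 to 24.4 in JZL184). In SAP against control, 4 of the 6 markers had a higher mean and 2 a lower one. All 5 fibroblast markers also had a lower mean with JZL184, 3 of them without overlap, with sums of 37.3 to 69.4 in SAP and 21.7 to 38.2 in JZL184. Among all genes tested in JZL184 against SAP, 5.59% were lower and 6.23% higher without overlap by CPM. All 5 smooth muscle markers (sums of 690 to 1708 in SAP and 315 to 1821 in JZL184), all 4 mesothelium markers (0.86 to 5.42 and 0.31 to 2.35) and 4 of 5 mast cell markers (5.2 to 9.69 and 2.26 to 3.46) were lower in mean as well, whereas all 5 B cell markers were higher in mean (11.2 to 74.2 and 51.3 to 105). The part of these lists in the lower Csf1r was not tested. The neutrophil sum overlapped between SAP and JZL184, with 5 of 9 markers higher in mean and 4 lower.

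Cd163 was at 2.65, 7.43, 4.57 and 7.66 FPKM with JZL184 and Mrc1 at 3.19, 3.93, 2.08 and 2.49 FPKM, in both cases overlapping the SAP libraries. Their log2 fold changes against SAP were 0.03 (SE 0.49) and -0.13 (SE 0.35), and without SAP libraries 1 and 2 they were 0.76 and 0.30. Cd68 was at 2.61, 4.44, 9.06 and 4.17 FPKM with JZL184, so that 3 of 4 libraries lay below every SAP library and JZL184 library 3 lay within the SAP range (log2 fold change -0.85, SE 0.43; edgeR, adjusted p = 0.271). Spp1 was at 4.51, 4.91, 5.12 and 6.13 FPKM, a narrow band inside the SAP range of 4.0 to 18.15 FPKM (log2 fold change -0.60, SE 0.49). Without SAP library 3, the highest, the log2 fold change of Spp1 was 0.08. C1qb was at 24.36, 93.63, 68.69 and 51.09 FPKM with JZL184 and C1qc at 14.89, 56.02, 66.00 and 40.00 FPKM, again with JZL184 library 1 the lowest.

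Arg1 differed most among the libraries of the JZL184 group. It was at 0.61, 0.73 and 0.67 FPKM in control, at 1.0, 0.85, 1.48 and 0.57 FPKM in SAP, and at 2.86, 2.30, 0.34 and 0.73 FPKM with JZL184. JZL184 libraries 1 and 2 lay above every other library and JZL184 library 3 below every other library, and the log2 fold change against SAP was 0.86 (SE 0.63; edgeR, adjusted p = 0.428). The median over the 10 genes was -0.360 in JZL184 against SAP, beside -0.0513 over all genes tested.

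The third comparison set rats with SAP and JZL184 against the controls. It shares the JZL184 libraries with the second and the controls with the first comparison, so that the 3 are not independent. The receptors Cd163 and Mrc1 and the secreted Spp1 rose, and Csf1r and C1qa lay below the controls in every JZL184 library. edgeR called 3 of 10 genes, all higher, against 2.16% of all genes (343 of 15916): Cd163 at 7.94-fold (log2 fold change 2.99, SE 0.55, adjusted p = 0.0398), Mrc1 at 5.05-fold (2.34, SE 0.46, adjusted p = 0.0454) and Spp1 at 3.79-fold (1.92, SE 0.35, adjusted p = 0.0385). These calls lay close to the threshold. All 3 were lost when control library 3, control libraries 1 and 2, JZL184 library 2 or JZL184 library 4 was left out, each time with the same sign. DESeq2 called the same 3 genes higher, against 5.81% of all genes, with adjusted p = 1.0e-06, 5.5e-05 and 0.00018.

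Csf1r had a log2 fold change of -1.42 (SE 0.33) against control, which edgeR did not call (adjusted p = 0.0631). DESeq2 called it lower (adjusted p = 0.0103), against 4.99% of all genes. C1qa was at 55.61, 137.93, 134.77 and 94.54 FPKM with JZL184 and at 220.96, 229.01 and 260.42 FPKM in control. Every JZL184 library lay below every control, with a log2 fold change of -1.21 (SE 0.40) that neither edgeR (adjusted p = 0.113) nor DESeq2 (0.0617) called. With control libraries 1 and 2 as separate samples, edgeR and DESeq2 each called 5 genes, the same 3 higher and Csf1r and C1qa lower, while their calls over all genes were also more numerous, at 2800 of 15427 and 3482 of 18468. By CPM, 3 genes were higher without overlap, against 18.9% of all genes, and 2 were lower (Csf1r and C1qa), against 19.3%. Cd68 (0.28), Adgre1 (-0.30), C1qb (-0.30), C1qc (-0.18) and Arg1 (1.19) were not called by edgeR or DESeq2, these values being log2 fold changes. The median over the 10 genes was 0.0472, beside 0.0833 over all genes.

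Ratios between the genes within a sample do not depend on library size, and they were examined as a description, without a test. The ratio of C1qa to C1qb FPKM was 3.24 and 3.35 in the control samples and 3.52, 4.09, 3.64 and 3.26 in SAP libraries 1 to 4. In JZL184 libraries 1 to 4 it was 2.28, 1.47, 1.96 and 1.85, below every sample of the other groups. C1qa, C1qb and C1qc encode the 3 chains of the same protein and lie side by side on chromosome 5 in the order C1qb, C1qc, C1qa, and C1qb and C1qc followed each other across samples (Pearson r = 0.935 over 10 samples) more closely than C1qa followed C1qb (0.794). The ratio of C1qc to C1qb overlapped between the groups, at 0.656 and 0.695 in control, 0.634 to 1.04 in SAP and 0.598 to 0.961 in JZL184. Thus C1qa was low relative to C1qb in all 4 JZL184 libraries. The ratio of C1qa to C1qc was not examined, and which chain set the lower ratio was not tested.

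**Figure D3:**
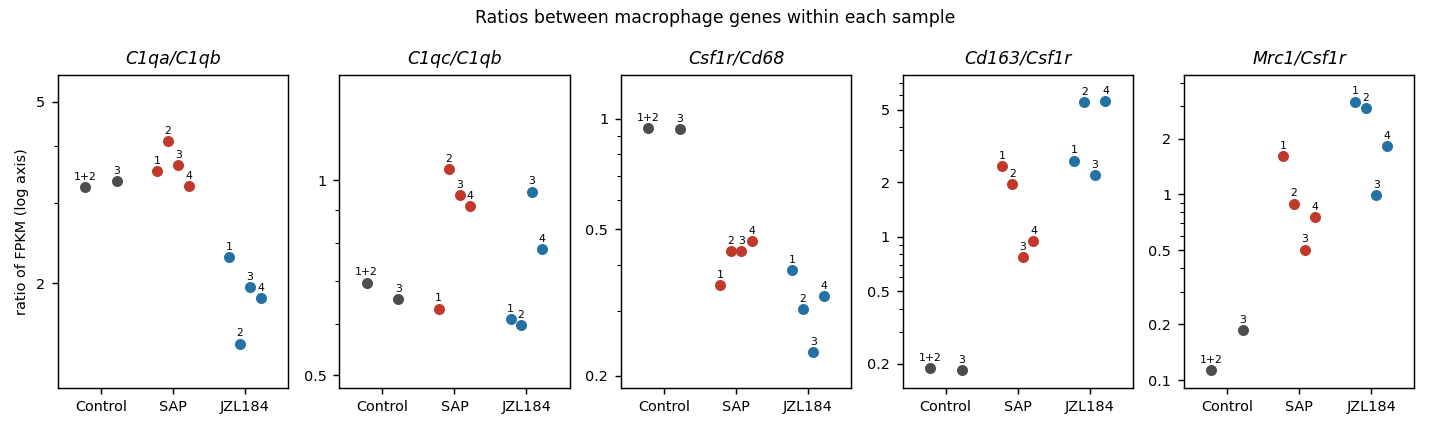
Ratios of FPKM between macrophage genes in each sample (log axes), where 1+2 marks the average of control libraries 1 and 2. The ratio of C1qa to C1qb lies between 1.47 and 2.28 with JZL184 and between 3.24 and 4.09 elsewhere, and the ratio of Csf1r to Cd68 lies near 0.94 in control and below 0.5 in all SAP and JZL184 samples.

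Within the cell surface and lysosomal genes, Csf1r and Cd68 separated in SAP. Their FPKM ratio was 0.942 and 0.937 in control, 0.353, 0.436, 0.436 and 0.465 in SAP libraries 1 to 4 and 0.387, 0.304, 0.232 and 0.329 in JZL184 libraries 1 to 4. All SAP and JZL184 samples lay below both controls. The ratio of Cd163 to Csf1r was 0.188 and 0.184 in control, 0.772 to 2.44 in SAP and 2.18 to 5.59 in JZL184. The ratio of Mrc1 to Csf1r moved the same way, from 0.114 and 0.186 in control to 0.505 to 1.61 in SAP and 0.990 to 3.16 in JZL184. For both, all SAP and JZL184 samples lay above the controls, and SAP and JZL184 overlapped.

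Cd163 and Mrc1 varied together over the 10 samples (Pearson r of log2(CPM + 1) = 0.913, and 0.892 without SAP libraries 1 and 2), whereas the values for Cd163 and Csf1r were -0.228 and -0.526. These samples share the group structure, so that the values describe the libraries and are not given with a p. The 250 bases upstream of the start site are shown for Cd163 and Mrc1, which moved together, and for C1qa and C1qb, whose ratio differed with JZL184. They are from RefSeq on the rat assembly GRCr8, 5′ to 3′ on the strand of the gene, and capitals mark the PU box GAGGAA or its reverse complement TTCCTC, the core to which the macrophage factor PU.1 binds. Cd163 is at chr4:158770524-158770773 (+), Mrc1 at chr17:82157475-82157724 (+), C1qa at chr5:154419934-154420183 (-) and C1qb at chr5:154407828-154408077 (-).
Cd163: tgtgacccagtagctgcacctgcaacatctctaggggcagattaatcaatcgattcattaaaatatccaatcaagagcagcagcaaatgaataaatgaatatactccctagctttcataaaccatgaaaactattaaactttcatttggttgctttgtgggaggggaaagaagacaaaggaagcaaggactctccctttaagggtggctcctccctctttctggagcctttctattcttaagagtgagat
Mrc1: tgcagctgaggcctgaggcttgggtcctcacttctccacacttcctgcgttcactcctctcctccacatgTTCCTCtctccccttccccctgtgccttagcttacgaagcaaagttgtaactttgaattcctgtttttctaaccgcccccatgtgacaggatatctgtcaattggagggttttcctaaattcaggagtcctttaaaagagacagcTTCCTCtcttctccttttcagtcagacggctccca
C1qa: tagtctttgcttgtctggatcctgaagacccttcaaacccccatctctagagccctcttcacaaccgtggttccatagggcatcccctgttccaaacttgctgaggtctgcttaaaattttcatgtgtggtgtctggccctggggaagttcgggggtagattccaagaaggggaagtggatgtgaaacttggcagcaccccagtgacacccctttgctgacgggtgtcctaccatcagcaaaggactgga
C1qb: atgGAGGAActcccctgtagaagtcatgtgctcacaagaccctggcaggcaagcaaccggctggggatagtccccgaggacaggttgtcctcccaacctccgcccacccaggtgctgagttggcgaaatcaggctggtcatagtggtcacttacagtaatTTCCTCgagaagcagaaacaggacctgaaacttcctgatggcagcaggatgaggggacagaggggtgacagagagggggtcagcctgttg

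The promoters of Mrc1 and C1qb each held 2 PU boxes, and those of Cd163 and C1qa held 0. A promoter sequence was at hand for 8 of the 10 genes, and 5 of the 8 held a PU box on either strand (C1qb, Adgre1, Cd68, Mrc1 and Csf1r), beside 23.3% of 33469 promoters of the same length. The glucocorticoid receptor motif AGAACA, on either strand, was in 0 of the 8 and in 17.5% of all promoters. The motifs do not overlap each other. A match describes these letters in this window, and a promoter without one may be bound elsewhere. The pair that moved together, Cd163 and Mrc1, thus differed in this motif, as did C1qa and C1qb.

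The ligands, factors and partners of the 10 genes came from fixed pathway lists. Of 13 genes for CSF1R ligands and lineage factors, edgeR called 0 in all 3 comparisons, and DESeq2 called 0 in SAP against control, 2 higher in JZL184 against SAP (Csf2 and Cebpb) and 3 higher in JZL184 against control. At an unadjusted p below 0.05 there were 1, 4 and 5 of the 13, beside 1457 of 16029, 3267 of 15308 and 4178 of 15916 among all genes tested. The same shares of all genes stand beside the counts at this threshold in the lists below. Csf1, the main ligand of CSF1R, had log2 fold changes of 1.20, -0.12 and 1.04 in SAP against control, JZL184 against SAP and JZL184 against control, and Il34, its other ligand, had 0.02, 0.45 and 0.45, none called by edgeR or DESeq2. The granulocyte-macrophage growth factor Csf2 was at 1.09, 0.69, 0.97 and 1.72 FPKM in SAP and at 5.86, 4.83, 2.39 and 3.52 FPKM with JZL184. All JZL184 libraries lay above all SAP libraries (log2 fold change 2.03, SE 0.47; edgeR, adjusted p = 0.0902; DESeq2, 0.00233). Spi1, which encodes PU.1, had log2 fold changes of -0.78, 0.17 and -0.63 and was not called by either tool in any comparison.

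Among 23 other macrophage surface genes, edgeR called 0 in SAP against control, 0 in JZL184 against SAP and 3 in JZL184 against control, all higher (Clec7a, Fcgr2b and Lilrb4, named because so few were called). DESeq2 called 2 higher in the first, 1 higher and 3 lower in the second and 6 higher and 1 lower in the third. At an unadjusted p below 0.05 there were 7 and 7 of 22 genes tested in the first 2 comparisons. Cx3cr1, the fractalkine receptor of resident gut macrophages, was at 0.475 and 0.49 FPKM in the control samples, at 1.64, 3.56, 0.77 and 1.33 FPKM in SAP and at 0.11, 0.18, 0.82 and 0.36 FPKM with JZL184. Its log2 fold change was 1.70 (SE 0.63) in SAP against control and -2.14 (SE 0.66) in JZL184 against SAP, where DESeq2 called it (adjusted p = 0.0209) and edgeR did not (0.135). Itgam and the adaptor Tyrobp were not called in any comparison, nor was the cathepsin Ctss, whose group means were 124 to 156 FPKM.

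**Figure D4:**
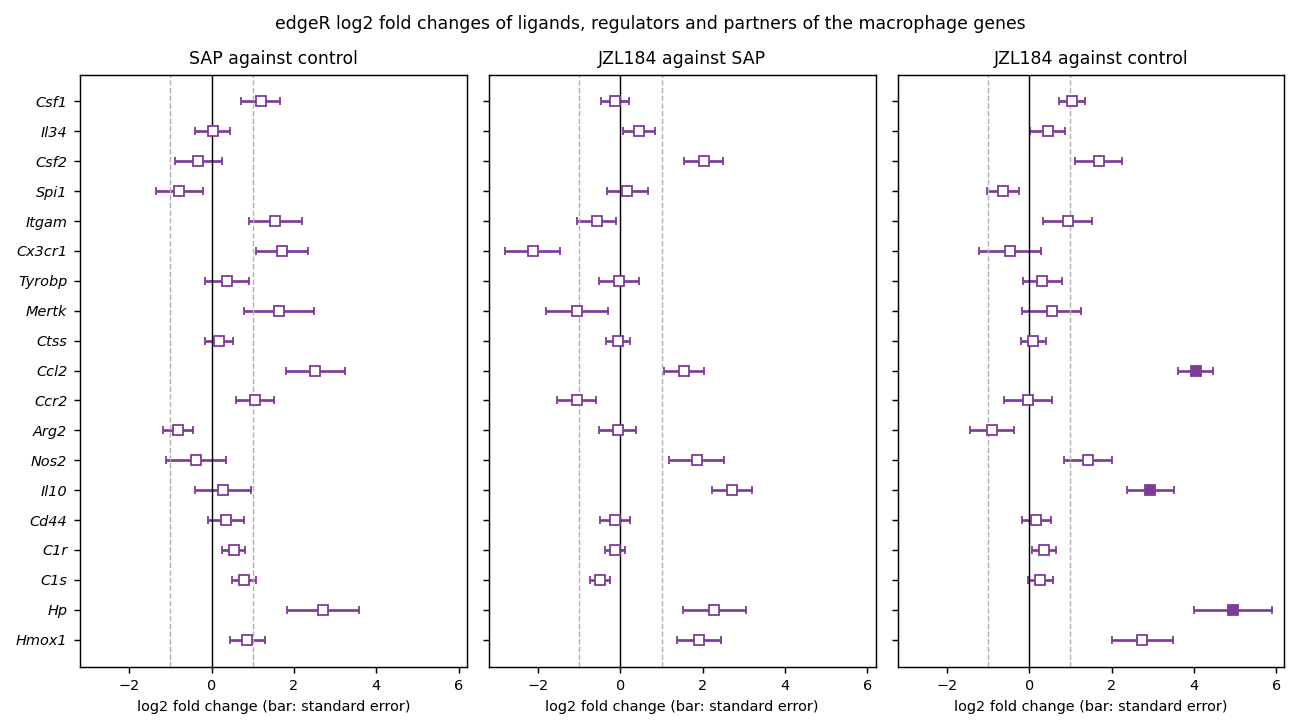
Log2 fold change by edgeR (squares) with the standard error (bars) of the ligands, factors and partners of the macrophage genes, with dashed lines at the fold change thresholds and filled squares for genes called. Filled squares appear for Ccl2, Il10 and Hp in JZL184 against control, at 4.04, 2.95 and 4.96, and Cx3cr1 lies at 1.70 in SAP against control and at -2.14 in JZL184 against SAP.

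The monocyte recruitment list had the highest median of the lists, at 1.70 in SAP against control and 2.11 in JZL184 against control on the log2 scale. edgeR called 0 of its 11 genes in SAP against control (7 at an unadjusted p below 0.05, and 6 by DESeq2) and 5 in JZL184 against control, all higher (Ccl2, Ccl7, Ccl3, Ccl4 and Fn1). Ccl2, the main chemokine that calls CCR2-bearing monocytes, was at 2.90 and 4.84 FPKM in the control samples, at 27.49, 9.11, 46.80 and 14.76 FPKM in SAP and at 50.82, 47.43, 70.94 and 89.65 FPKM with JZL184. The groups followed each other in this order without overlap, and the log2 fold change was 4.04 (SE 0.43; edgeR, adjusted p = 0.0112) for JZL184 against control. Against SAP it was 1.55 (SE 0.48; edgeR, adjusted p = 0.138; DESeq2, 0.0344). Its receptor Ccr2 had the opposite sign in that comparison, at -1.05 (SE 0.47), and was not called. Ccl2 is also made by cells other than macrophages, and which cells made it was not tested.

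The list of 9 genes for hemoglobin scavenging, the task of CD163, had a median log2 fold change of 0.07 in SAP against control, 0.68 in JZL184 against SAP and 0.79 in JZL184 against control. Hp, the haptoglobin that CD163 takes up with hemoglobin, was at 0.40 and 0.50 FPKM in the control samples, at 4.23, 0.61, 5.57 and 2.66 FPKM in SAP and at 10.50, 31.47, 6.38 and 6.06 FPKM with JZL184. It rose in JZL184 against control (log2 fold change 4.96, SE 0.95; edgeR, adjusted p = 0.0436), as the 1 gene of the list that edgeR called, where DESeq2 called 3 higher and 2 lower. In SAP against control DESeq2 called Hp (adjusted p = 0.0377) and Slc11a1 higher and Blvra lower. In JZL184 against SAP it called Hp and Hmox1, both higher. Hp is made by the liver and the neutrophil lineage as well. JZL184 library 2 had both the highest Hp and the highest neutrophil sum (251 FPKM, of which S100a8 was 149 and S100a9 95.6). The part of neutrophils in it was not tested. Hmox1, which degrades heme, was at 6.84 and 5.10 FPKM in the control samples, at 15.93, 8.10, 16.68 and 8.87 FPKM in SAP and at 10.41, 38.50, 81.62 and 35.86 FPKM with JZL184. Against SAP its log2 fold change was 1.91 (SE 0.54; edgeR, adjusted p = 0.118; DESeq2, 0.0132).

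Genes of alternative activation showed 1 call by edgeR among 8 tested, Il10 in JZL184 against control (log2 fold change 2.95, SE 0.58, adjusted p = 0.0452). DESeq2 called Il10 in that comparison too and in JZL184 against SAP (log2 fold change 2.72, adjusted p = 3.7e-05; edgeR, 0.0753), and in SAP against control it called the chemokine Ccl22 lower (-2.67, adjusted p = 0.0028). Il10, an anti-inflammatory cytokine, was at 0.045 and 0.08 FPKM in the control samples, at 0.14, 0.04, 0.10 and 0.04 FPKM in SAP and at 0.39, 0.57, 0.58 and 0.35 FPKM with JZL184, so that all JZL184 libraries lay above all others at a low level of at most 62 reads. Retnla, a marker of alternative activation in rodents, was listed at 0 FPKM in all control and SAP samples and had at most 3 reads, and no row was found under the symbol Il4ra. In the arginine and nitric oxide list edgeR called 0 of 7 genes in each comparison (0, 3 and 3 at an unadjusted p below 0.05; 0, 1 and 1 by DESeq2). Nos2, which competes with arginase for arginine, was at 0.60 to 4.09 FPKM in SAP and 2.73 to 9.76 FPKM with JZL184 (log2 fold change 1.85, SE 0.66; edgeR, adjusted p = 0.168; DESeq2, 0.0485). Arg2, the mitochondrial arginase, had group means of 14.1, 8.78 and 7.75 FPKM in control, SAP and JZL184 and was not called.

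Among the 10 complement partners of C1q, edgeR and DESeq2 each called 0 in every comparison, with 3, 1 and 0 at an unadjusted p below 0.05 in SAP against control, JZL184 against SAP and JZL184 against control. The proteases C1r and C1s, which assemble with C1q into the C1 complex, were at 35.6 ± 0.276 and 17.1 ± 4.39 FPKM in control (n = 2) and at 58.0 ± 5.77 and 33.3 ± 7.17 FPKM in SAP (n = 4). In SAP their log2 fold changes were 0.53 (SE 0.27) and 0.79 (SE 0.30), not called, while those of the C1q chains were below 0 and not called. Without SAP libraries 1 and 2 the chains were at -0.02 (C1qa), -0.08 (C1qb) and 0.39 (C1qc). Of the 7 osteopontin receptors, edgeR called 1, Itga5 in JZL184 against control, and Cd44 had log2 fold changes of 0.35, -0.14 and 0.18. DESeq2 called 0 of them in SAP against control, 1 higher (Itga5) and 2 lower (Itgb3 and Itga8) in JZL184 against SAP and 2 higher in JZL184 against control. Of 14 efferocytosis genes, edgeR called 1, Abca1 in JZL184 against control. DESeq2 called 0, then 1 higher (Abca1) and 2 lower (Axl and Dock1), then 1 higher in the 3 comparisons in that order. Mertk, a receptor for dying cells, ranged from 0.68 to 5.51 FPKM within SAP and was not called. Of 15 lysosome genes edgeR called 0 in each comparison (3, 1 and 4 at an unadjusted p below 0.05; 1, 0 and 2 by DESeq2), with medians of -0.12, 0.26 and 0.10.

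The 8 genes other than Spp1 and Arg1 did not all vary together. Pearson r between pairs of them ran from -0.496 (Mrc1 and C1qa) to 0.935 (C1qb and C1qc) over 10 samples. Their mean standardized level, which averages over such opposing genes, was highest in SAP library 3 (0.876) and lowest in JZL184 library 1 (-1.19), and the groups overlapped. Over all 10 samples, the genes most like it were RT1-A1 (Pearson r = 0.925), RT1-A3 (0.886), Vsig10l (0.860), Mmp2 (0.832) and Fam78a (0.831), of which 3 of 5 remained without SAP libraries 1 and 2. RT1-A1 and RT1-A3 are class I histocompatibility genes with near-identical copies, so that their read counts are uncertain. The genes most like Spp1 were Cpxm1 (0.889), Acot5 (0.878) and Gpnmb (0.860), of which Gpnmb, a glycoprotein of lipid-laden macrophages, was still among the first 3 without those libraries. Gpnmb was at 1.18 ± 0.301 FPKM in control (n = 2), 6.47 ± 2.49 in SAP and 4.52 ± 1.36 in JZL184 (n = 4). The genes most like Arg1 were Nras (0.891), Lilrb2 (0.882) and LOC120101644 (0.863), and 0 of these 3 remained.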

How the data were processed

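RNA of 11 ileum samples was sequenced by the authors after selection of mRNA, with a strand-marking kit. Reads were trimmed with FASTX-Toolkit and mapped to mRatBN7.2 with HISAT2. The authors deposited raw read counts of uniquely mapped reads per gene, not normalized, and FPKM with 2 decimals, scaled for gene length and library size. The counting tool is not given in the sources used here, nor are its strand setting and annotation. Depth was 26341299 to 33847135 reads on genes per library, so that counting error mattered mainly for genes with few reads.

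Groups followed the treatment labels. Pairs of groups were compared with edgeR 4.0.16 (R 4.3.3; quasi-likelihood test, TMM, filterByExpr with a minimum count of 10) over all genes, with Benjamini-Hochberg adjustment, and genes were called where the adjusted p was under 0.05 and the levels differed by more than 2-fold, the thresholds of the study. Reads of control libraries 1 and 2 were summed and their FPKM averaged. All 10 members passed the filter in each comparison. The labels do not state that the libraries of a group came from separate rats, so p-values measure the spread between these samples. Alternatives were DESeq2 1.42.0, limma-voom (limma 3.58.1) with quality weights, DESeq2 size factors, no filter, no fold threshold, 3 groups in 1 fit, gene length offsets (span 0.3), a replicate block, separate controls, leaving out each library, and leaving out SAP libraries 1 and 2. DESeq2 with separate controls or with libraries left out was chosen after seeing the data. Scripts were tested on simulated data. Likeness was the Pearson r of log2(CPM + 1) over genes with a mean count of 50 or more.

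The members, lists and tests were chosen with earlier results of these data known. Named genes were the 10 members, fixed genes of each pathway list, the 5 or 3 genes most like the members, and the genes of short lists of calls, which were chosen after their values were seen. A fixed gene is not reported here. Promoters came from RefSeq (GRCr8), a later assembly than that of the files, and only its own coordinates are given for them.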

Additional observations from a re-analysis of the deposited data

How the results depend on the processing

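Counts of called genes are given for SAP against control, JZL184 against SAP and JZL184 against control, where edgeR called 0, 0 and 3. In SAP against control the count was 3 with DESeq2, 4 with DESeq2 and separate controls, and 3 without SAP libraries 1 and 2 by edgeR (74 of all 15362 genes) and by DESeq2. It was 0 in every edgeR fit that left out 1 replicate, and 0 to 4 with DESeq2 when 1 replicate was left out (0 without control libraries 1 and 2, 1 without control library 3). In JZL184 against SAP it was 2 with DESeq2, 1 with DESeq2 without SAP libraries 1 and 2, and 0 with limma-voom (699 of all 15308 genes). It was 0 in every edgeR fit with 1 replicate left out, and 0 to 2 in those of DESeq2. In JZL184 against control it was 5 with limma-voom, 5 with separate controls in edgeR and 5 in DESeq2, fits that called 2906 of 15916, 2800 of 15427 and 3482 of 18468 genes overall against 343 of 15916. It was 2 with all 3 groups in 1 fit (369 of 16570) and 1 with gene length offsets (Spp1; 358 of 15916). Leaving out 1 replicate gave 0 to 4 with edgeR (0 without control libraries 1 and 2, control library 3, JZL184 library 2 or JZL184 library 4) and 2 to 5 with DESeq2. The cause of these differences was not tested, apart from the fewer samples where libraries were left out.

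The median log2 fold changes over the 10 genes (0.754, -0.360 and 0.0472) ranged from 0.527 to 0.899, from -0.587 to -0.168 and from -0.0501 to 0.312 when 1 replicate was left out, and the first was 1.22 with the replicate block, gene length offsets and separate controls.

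Single genes near 0 changed sign. In SAP against control, Csf1r (0.03) was -0.016 with limma-voom, -0.016 with all 3 groups in 1 fit, -0.19 with gene length offsets, -0.25 with these and the replicate block, -0.050 without control libraries 1 and 2, and -0.19 to 0.25 when a replicate was left out. C1qc (-0.14) was 0.13 with gene length offsets, 0.39 without SAP libraries 1 and 2 and -0.37 to 0.17 without 1 replicate. In JZL184 against SAP, Mrc1 (-0.13) was 0.12 with gene length offsets, 0.056 with the offsets and replicate block, 0.30 without SAP libraries 1 and 2 and -0.38 to 0.15 without 1 replicate. C1qb (0.30) was -0.21 without SAP libraries 1 and 2 and -0.10 to 0.58 without 1 replicate. C1qc (-0.03) was 0.020 with limma-voom and -0.32 to 0.28 without 1 replicate, Cd163 ranged from -0.20 to 0.57 and Spp1 from -0.85 to 0.082. In JZL184 against control, leaving out 1 replicate gave -0.090 to 0.51 for Cd68, -0.68 to 0.10 for Adgre1 and -0.39 to 0.12 for C1qc. None of these genes was called there by edgeR.

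Replicate numbers did not pair the samples: the deviations of same-numbered SAP and JZL184 libraries correlated at 0.114, -0.416, -0.0102 and -0.0845, and only SAP library 1 correlated best with its own number among the SAP libraries. The replicate block, with separate controls where control was compared, gave 0, 0 and 4 called genes and medians of 0.873, -0.201 and -0.0345.

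Depth limits Adgre1 (10 to 251 reads per library), Arg1 (19 to 183) and Il10, and n = 2 controls limit both comparisons with control. No setting separates macrophage number from RNA per macrophage.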
